A study of Mus musculus with 4 samples.

Results

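The receptors described here are those through which cells sense extracellular nucleotides and adenosine. The list held 10 genes: the ATP-gated channel genes P2rx4 and P2rx7, the nucleotide receptor genes P2ry2, P2ry6, P2ry12, P2ry13 and P2ry14, and the adenosine receptor genes Adora2a, Adora2b and Adora3. A probe set, the group of short oligonucleotides on an Affymetrix array that reads 1 transcript, was a member when 1 of these symbols was its only gene symbol in the platform annotation. There were 14 such probe sets among the 45037 on the array, and they covered 8 of the 10 genes. Adora2a and Adora2b had none and were not analysed here.

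Gene expression was measured on 4 Mouse430_2 arrays in macrophages grown for 6 days from mouse bone marrow in recombinant human M-CSF. All 4 came from MyD88 -/- cells, which lack the adaptor used by most Toll-like receptors and by the interleukin-1 receptor. Of these, 2 were from cells that received 100 ug/ml zymosan, particles of yeast cell wall, for 120 min, and 2 from unstimulated cells at 0 min, whose titles hold the letters LPS and PIC. Neither the strain, sex and age of the mice nor separate mice or cultures within a group are given in the labels. The p-values therefore measure only how far these arrays spread, and that spread may be technical. With no array from wild-type cells, these values cannot say which differences depend on MyD88. The comparison asks which receptor transcripts differed after zymosan in cells without MyD88.

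Dying, stressed and activated cells release ATP, UTP, UDP and UDP-glucose. The P2X receptors are cation channels opened by ATP, and the P2Y receptors are coupled to G proteins and differ in the nucleotide they bind. Ectonucleotidases at the cell surface turn ATP stepwise into adenosine, which acts on its own family of G-protein-coupled receptors. In macrophages these receptors are known for steering migration toward dying cells, particle uptake, inflammasome activation and, through adenosine and cyclic AMP, the damping of inflammation.

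Values are the authors' RMA values on the log2 scale, and every difference is zymosan minus unstimulated. A probe set was tested when it reached the 40th percentile of its array (a log2 value of 4.36 to 4.39) on at least 2 arrays. The test was limma's moderated one over all 27571 probe sets that did so, with Benjamini-Hochberg adjustment and a threshold of adjusted p under 0.05. Every adjusted p comes from that fit unless another is named. The smallest 2-sided p that exact permutation of 2 and 2 arrays allows is 0.333, so the test rests on variances shared across probe sets, and the number of arrays limits the precision. In bulk RNA, fewer cells that express a gene and less RNA per cell cannot be told apart.

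The cells carried macrophage transcripts. All 8 macrophage markers with a probe set were above the filter, among them Adgre1, Csf1r and Cd68. Of these 8, 4 were lower with zymosan in the limma fit. The mean of the list was 11.16 and 11.15 on the zymosan arrays and 11.61 and 11.80 on the unstimulated arrays. Of 12 markers of neutrophils and granulocyte precursors, 11 were higher with zymosan, and their mean was 7.71 and 7.81 on the zymosan arrays against 5.97 and 5.87 on the unstimulated arrays. Of 7 T and NK cell markers, 6 did not pass the filter, and 5 of 6 mast cell and basophil markers did not. Above the filter were 3 of 4 B cell markers (1 lower), 5 of 7 dendritic cell markers (1 lower), 6 of 8 erythroid and megakaryocyte markers (1 higher) and 3 of 5 stromal markers. The part of these shifts in the receptor results below was not tested. Myd88 had log2 values of 8.37 and 8.40 on the zymosan arrays and 8.72 and 8.78 on the unstimulated arrays (adjusted p = 0.0673), which checks no label since all 4 arrays are from deficient cells and the place of the probes relative to the deletion is not known here. Per the file headers, the zymosan arrays were scanned on the same day, 153 days after the first unstimulated array and by another operator. The unstimulated arrays were scanned 16 days apart. For every receptor the stimulus and the day of scanning therefore cannot be told apart.

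**Figure D1:**
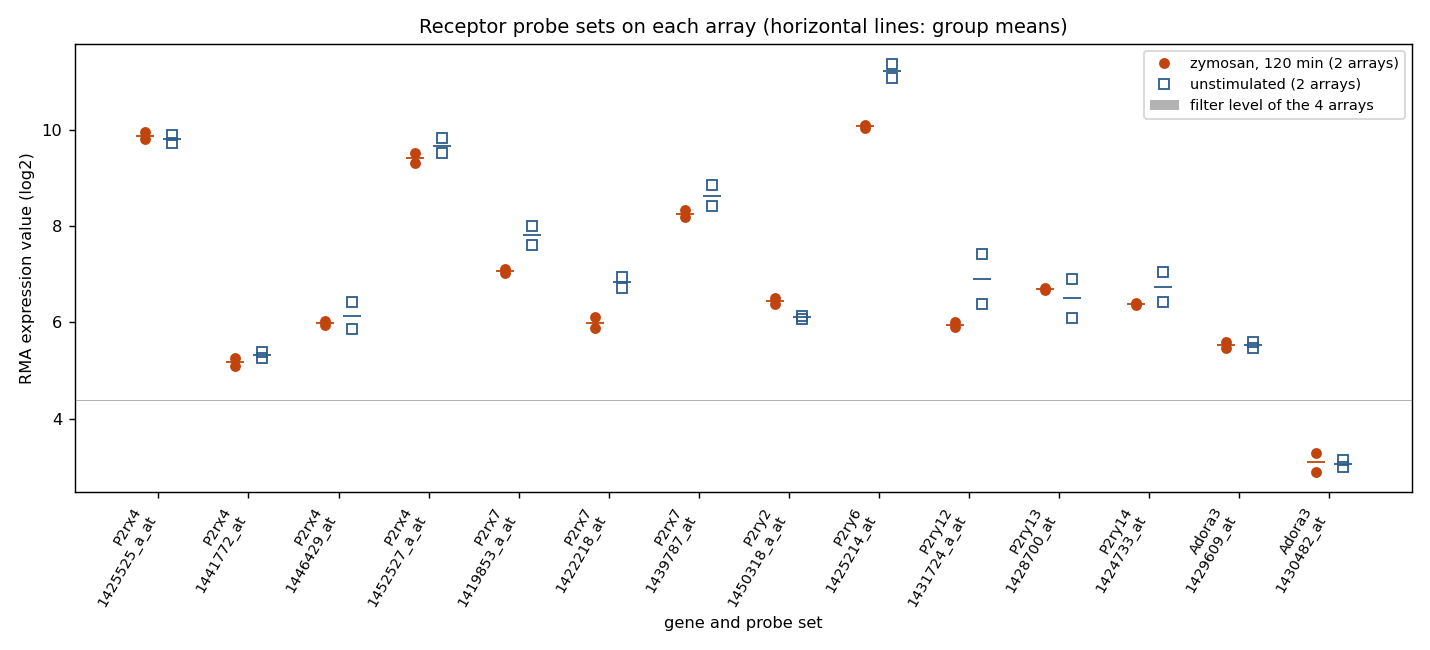
RMA log2 expression value (vertical axis) of each of the 14 receptor probe sets (horizontal axis) on the 2 zymosan arrays (filled circles) and the 2 unstimulated arrays (open squares), with group means as short lines and the filter level as a grey band. P2ry6 and all 3 P2rx7 probe sets lie lower on both zymosan arrays, while P2ry12, P2ry13 and P2ry14 are spread apart on the unstimulated arrays.

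The receptor for UDP was lower after zymosan. The ATP-gated channel of the inflammasome pathway was lower at 2 of its 3 probe sets, but not at that of highest mean. The other receptors did not pass the test. Of the 14 probe sets, 13 passed the filter. Among these, 3 were lower, that of P2ry6 and 2 of the 3 of P2rx7, and 0 were higher. Over all probe sets tested, 15.9% passed in either direction, 7.45% lower and 8.48% higher. With so few receptor probe sets, nothing particular to the receptors is read from the count. At an unadjusted p under 0.05, 4 receptor probe sets were lower and 1 higher. With 1 probe set a gene, that of highest mean, 1 of 8 receptor genes (P2ry6) was lower and 0 were higher in the limma fit, where 5.64% and 8.36% of all 13222 genes were lower and higher. At an unadjusted p under 0.05 the receptor genes gave 2 lower and 1 higher. The median difference was -0.26 over the 13 receptor probe sets and -0.01 over all probe sets tested.

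**Figure D2:**
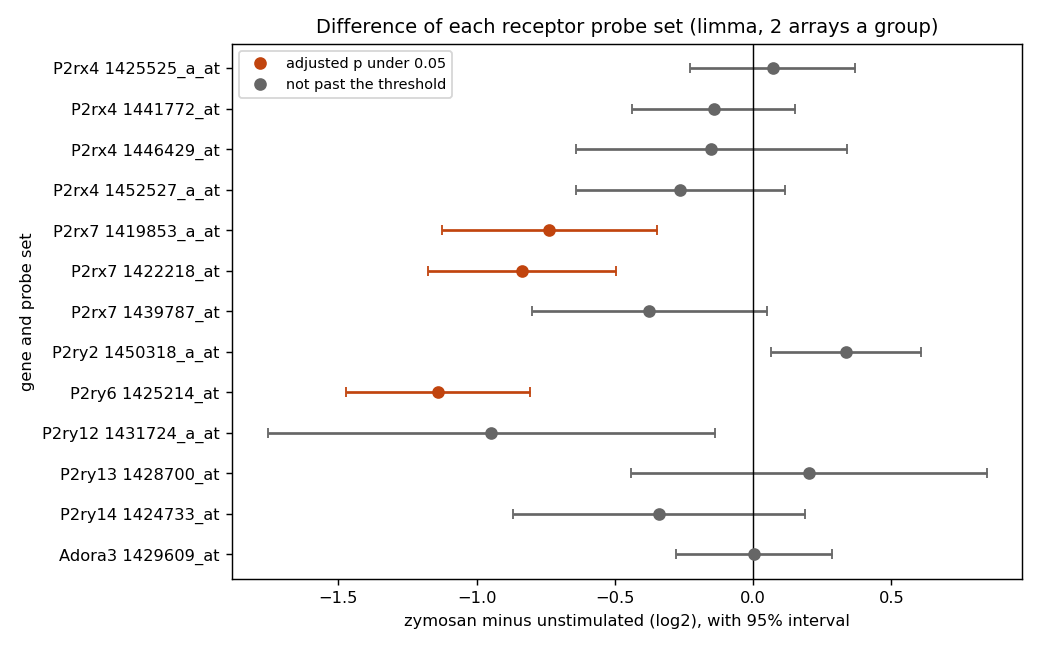
Zymosan minus unstimulated difference on the log2 scale (horizontal axis) of the 13 receptor probe sets tested (vertical axis), with limma's 95% interval. P2ry6 (-1.14) and P2rx7 at 1422218_at (-0.84) and 1419853_a_at (-0.74) are past the threshold of adjusted p under 0.05.

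P2ry6 encodes a Gq-coupled receptor for UDP that is known in microglia, the macrophages of the brain, for triggering phagocytosis. Its only probe set, 1425214_at, had log2 values of 10.04 and 10.10 on the zymosan arrays, against 11.07 and 11.35 on the unstimulated arrays. Both zymosan arrays lay well below both unstimulated arrays, and the gap between the groups was wider than either group's own spread. P2ry6 was 2.20-fold lower with zymosan (difference of -1.14, SE 0.13, 95% interval -1.47 to -0.81, adjusted p = 0.00728). Of all probe sets tested, 3.67% differed by at least as much in either direction. The difference was -1.28 without unstimulated replicate 1 and -0.996 without unstimulated replicate 2. It was -1.11 without zymosan replicate 1 (adjusted p = 0.0641) and -1.17 without zymosan replicate 2 (adjusted p = 0.0696), so the call was lost at a similar size. Tested against a minimum fold of 1.5 with limma's treat, P2ry6 had an adjusted p of 0.122.

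The genes whose pattern over the 4 arrays was most like that of P2ry6 were Ms4a6b, Gab3 and Ggact. Likeness was the Euclidean distance between log2 values centred on the unstimulated mean, among 13222 genes. The distances were 0.07, 0.08 and 0.09. Ms4a6b differed by -1.18, Gab3 by -1.11 and Ggact by -1.19 on the log2 scale. With only 4 arrays, this likeness says little beyond a decrease of similar size with a similar split between the unstimulated arrays.

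P2rx7 encodes the channel that opens at high extracellular ATP and whose potassium efflux activates the NLRP3 inflammasome. Probe set 1422218_at had log2 values of 6.10 and 5.89 on the zymosan arrays and 6.72 and 6.95 on the unstimulated arrays. It was 1.79-fold lower with zymosan (-0.84, SE 0.14, 95% interval -1.18 to -0.50, adjusted p = 0.0167). At 1419853_a_at, where the arrays of the groups also did not overlap, the values were 7.11 and 7.03 on the zymosan arrays and 7.60 and 8.0 on the unstimulated arrays (-0.74, SE 0.16, adjusted p = 0.0330). The third, 1439787_at, had the highest mean and so represented the gene. Its values were 8.32 and 8.19 on the zymosan arrays and 8.41 and 8.85 on the unstimulated arrays, a difference of -0.38 (SE 0.17, 95% interval -0.80 to 0.05) that did not pass the test (adjusted p = 0.200). All 3 probe sets thus lay lower on both zymosan arrays than on either unstimulated array, by unlike amounts, and whether those amounts differ was not tested. The mean of the 3 probe sets differed by -0.65 (adjusted p = 0.0325 in a limma fit with 1 mean value a gene).

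The P2rx7 calls were lost when either zymosan array was left out and with day as a block. In the same settings far fewer of all probe sets tested were called, 5.03% with the block against 15.9% in the main fit. Whether the loss for P2rx7 went beyond this drop was not tested. Both P2rx7 calls were also lost against a minimum fold of 1.5 with limma's treat, where 1.63% of all probe sets tested were called. Without zymosan replicate 1 the called probe sets differed by -0.94 (adjusted p = 0.0762) and -0.78 (adjusted p = 0.148), and without zymosan replicate 2 by -0.73 (adjusted p = 0.135) and -0.70 (adjusted p = 0.193). With the day of scanning as a block, their adjusted p-values were 0.0655 and 0.0939. P2ry6 was the only receptor probe set called there (adjusted p = 0.0261). At 1439787_at the difference was -0.60 without unstimulated replicate 1 and -0.15 without unstimulated replicate 2.

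P2rx4, which lies next to P2rx7 on chromosome 5 in GRCm38.p6, encodes an ATP-gated channel found largely in the membranes of lysosomes. None of its 4 probe sets passed the test. The one of highest mean, 1425525_a_at, had log2 values of 9.95 and 9.79 on the zymosan arrays and 9.73 and 9.88 on the unstimulated arrays (0.07, 95% interval -0.23 to 0.37, adjusted p = 0.741). The groups overlapped at this and at the other 3 probe sets, which differed by -0.14 to -0.26 (adjusted p from 0.299 to 0.657). The intervals of the 4 probe sets reached from -0.64 to 0.37, so a decrease of the size seen for P2ry6 lay outside them. The Camkk2 gene overlaps P2rx4 there. Camkk2, a calcium-activated kinase, differed by -0.50 (adjusted p = 0.132), and Ift81, on the far side of P2rx7, by -0.53 (adjusted p = 0.137), neither past the test.

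The bases before the starts of P2rx7 and P2rx4 are shown because P2rx7 passed the test at 2 probe sets and its neighbour P2rx4 at none, and those of P2ry12 and P2ry13 because these neighbouring ADP receptor genes varied most within the unstimulated pair. RefSeq start windows in GRCm38.p6, which run from 250 bases before to 50 after a start, were matched by symbol for 8 of the 10 genes, with no window for P2ry6 or Adora2a. The 250 upstream bases of the most upstream start are printed 5′ to 3′, with matches to the searched motifs in capitals. The stretches are chr5:122643677-122643926 (plus strand), chr5:122707294-122707543 (plus strand), chr3:59262986-59263235 (minus strand) and chr3:59210883-59211132 (minus strand).
P2rx7: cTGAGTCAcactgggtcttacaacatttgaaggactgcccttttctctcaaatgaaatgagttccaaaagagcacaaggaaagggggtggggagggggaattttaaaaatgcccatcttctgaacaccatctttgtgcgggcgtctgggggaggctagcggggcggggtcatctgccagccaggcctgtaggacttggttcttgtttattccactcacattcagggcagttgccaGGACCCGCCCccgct
P2rx4: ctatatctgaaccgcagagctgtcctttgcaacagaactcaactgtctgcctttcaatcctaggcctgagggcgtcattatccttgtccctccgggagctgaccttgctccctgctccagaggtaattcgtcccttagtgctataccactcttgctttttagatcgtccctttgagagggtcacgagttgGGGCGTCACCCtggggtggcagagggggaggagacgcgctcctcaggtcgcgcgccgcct
P2ry12: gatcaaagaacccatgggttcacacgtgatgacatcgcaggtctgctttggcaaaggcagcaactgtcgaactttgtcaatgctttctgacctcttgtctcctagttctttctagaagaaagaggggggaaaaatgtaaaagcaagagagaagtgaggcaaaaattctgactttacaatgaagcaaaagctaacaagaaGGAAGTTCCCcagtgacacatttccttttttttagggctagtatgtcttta
P2ry13: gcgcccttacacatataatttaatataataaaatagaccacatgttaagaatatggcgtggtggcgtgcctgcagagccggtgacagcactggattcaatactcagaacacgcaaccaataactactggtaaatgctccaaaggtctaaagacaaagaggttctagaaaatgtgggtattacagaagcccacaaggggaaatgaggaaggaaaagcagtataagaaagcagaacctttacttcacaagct

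In these windows a loose form of the NF-kB site, 3 G and 2 C bases with any 5 bases between, was searched on both strands and found in P2rx7, in P2rx4 (as overlapping matches) and in P2ry12, but not in P2ry13. It is common, being in 50.8% of all 32851 windows. The AP-1 letters TGANTCA, in 7.81% of windows, were found in the P2rx7 window shown, at its far upstream end. They were not in the windows of P2rx4, P2ry12 and P2ry13. Among the other receptor windows, some of P2ry14 and that of Adora3 held them, and the second P2rx7 window did not. Neither P2ry14 nor Adora3 passed the test. The CRE (TGACGTCA), EGR (GCGTGGGCG) and ISRE motifs are in 1.79%, 0.612% and 3.44% of windows and were in none of the 13 receptor windows. These are matches of letters and say nothing about binding.

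P2ry2 encodes a Gq-coupled receptor for ATP and UTP that is known to guide phagocytes to dying cells. It lies next to P2ry6 on chromosome 7. Its probe set 1450318_a_at had log2 values of 6.38 and 6.497 on the zymosan arrays, against 6.07 and 6.13 on the unstimulated arrays. The zymosan arrays were above the unstimulated arrays with no overlap, but the difference of 0.34 (SE 0.11, 95% interval 0.06 to 0.61) did not pass the test (adjusted p = 0.0965). It was the only receptor probe set of 13 that was higher on both zymosan arrays, and 6 were lower on both, where 30.4% and 30.2% of all probe sets tested were. On the outer sides of this pair, Arhgef17 differed by -0.05 (adjusted p = 0.836) and Fchsd2 by 0.75 (adjusted p = 0.0551).

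The Gi-coupled receptors P2ry12 and P2ry13, for ADP, and P2ry14, for UDP-glucose, are neighbours on chromosome 3, where the larger Med12l gene spans all 3. Med12l, Gpr171 and Igsf10 had probe sets, none above the filter. None of the 3 receptors passed the test, and in each the unstimulated arrays stood apart while the zymosan arrays did not.

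P2ry12, the target of antiplatelet drugs and a marker of microglia, had log2 values of 5.90 and 6.01 on the zymosan arrays and 6.38 and 7.42 on the unstimulated arrays. The groups did not overlap, and the difference of -0.95 had a wide interval, from -1.75 to -0.14 (SE 0.32, adjusted p = 0.110). It was -1.46 without unstimulated replicate 1 and -0.43 without unstimulated replicate 2. With 1 unstimulated array left, the spread in the fit is that of the zymosan pair alone, so no p-value is given. The size of the P2ry12 difference thus depended on which unstimulated array it was set against, more than for any other receptor probe set tested.

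P2ry13 had values of 6.67 and 6.72 on the zymosan arrays, which lay between the 6.09 and 6.89 of the unstimulated arrays. Its difference of 0.20 (SE 0.26, adjusted p = 0.652) turned to -0.20 without unstimulated replicate 1, and was 0.60 without unstimulated replicate 2. No direction can be given for P2ry13. P2ry14 had 6.40 and 6.37 on the zymosan arrays and 7.04 and 6.41 on the unstimulated arrays, so that the second unstimulated array was level with the zymosan arrays. It differed by -0.34 (SE 0.21, adjusted p = 0.333), by -0.03 without unstimulated replicate 1 and by -0.65 without unstimulated replicate 2.

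Between the unstimulated arrays most receptor probe sets differed in the same direction. Of the 13 receptor probe sets, 11 were lower on unstimulated replicate 1 than on replicate 2, against 47.4% of all probe sets tested, with a median difference of -0.29 against 0.01. Several of these share a gene, with 4 for P2rx4 and 3 for P2rx7. The exceptions were P2ry14 and Adora3. More than 0.5 apart were P2ry12 (-1.03), P2ry13 (-0.80), P2ry14 (0.63) and P2rx4 at 1446429_at (-0.56), and 7.35% of all probe sets tested were that far apart. These are single arrays of different days, so no test of the difference was made.

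**Figure D3:**
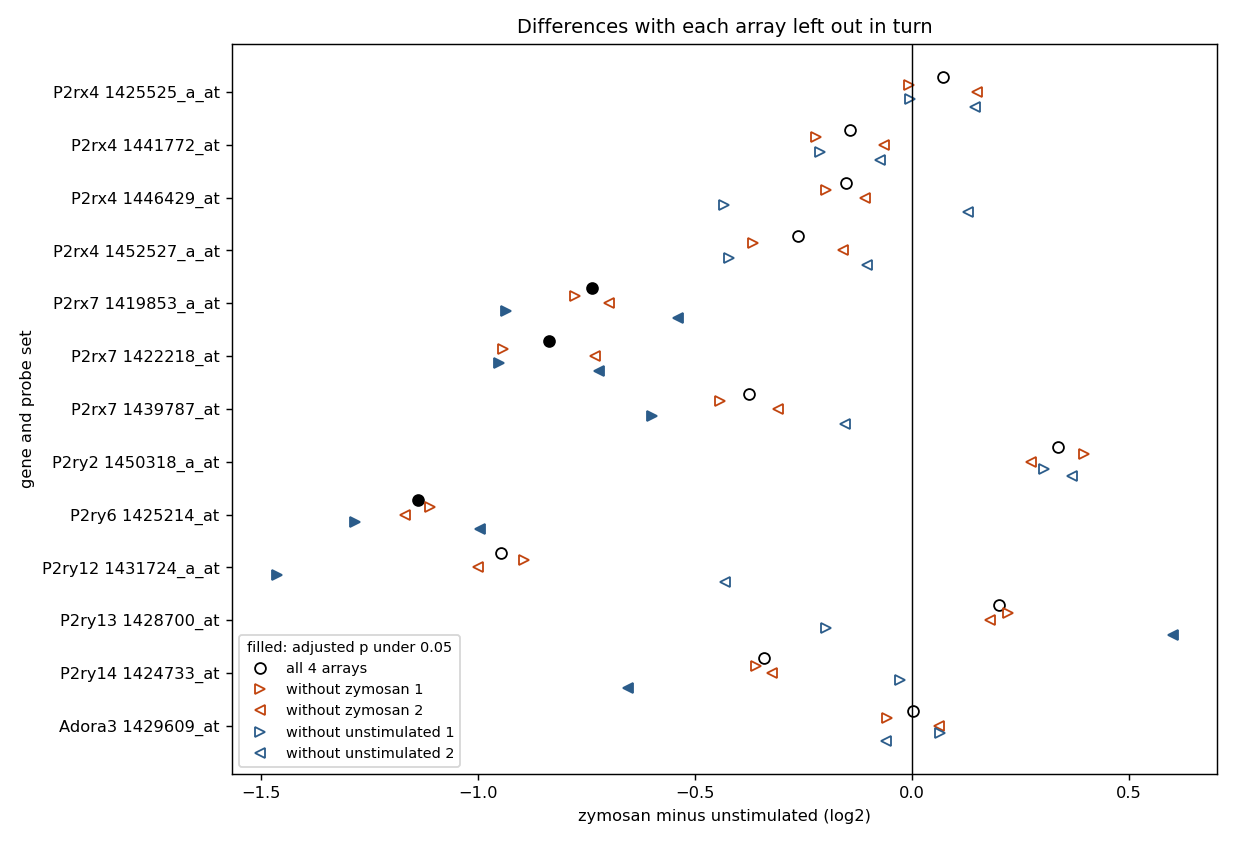
Zymosan minus unstimulated difference on the log2 scale (horizontal axis) of the 13 receptor probe sets tested (vertical axis), with all 4 arrays (circles) and with each array left out in turn (triangles). Symbols are filled where adjusted p was under 0.05. Without an unstimulated array, the spread in the fit is that of the zymosan pair alone. No probe set is filled without a zymosan array, and P2ry12, P2ry13 and P2ry14 move most when an unstimulated array is left out.

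Adora3 encodes a Gi-coupled adenosine receptor. Its probe set 1429609_at had log2 values of 5.58 and 5.46 on the zymosan arrays and 5.58 and 5.46 on the unstimulated arrays, and the groups overlapped fully. The difference was 0.00 (SE 0.11, 95% interval -0.28 to 0.28, adjusted p = 0.992). The interval did not reach the differences of P2ry6 or of the called P2rx7 probe sets. The other probe set, 1430482_at, had values from 2.89 to 3.30, below the filter level on all 4 arrays, and was not tested. Another gene, Tmigd3, overlaps Adora3 on chromosome 3. The place of the Adora3 probes relative to it is not known here.

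Among the genes that release, degrade and relay the signals of these receptors, 13 were higher after zymosan and 2 lower when each gene was read by its probe set of highest mean, with 6 of the higher ones among phosphodiesterase and cyclic AMP responsive genes. Over all 13222 genes, 14% passed the test in either direction, 8.36% higher and 5.64% lower, and the median difference was 0.00. Other probe sets of the same genes gave further calls in 5 of these lists, some in the opposite direction, and are given with each list. Of the 6 other purinergic and adenosine receptor genes tested (P2rx1, P2rx2, P2rx5, P2rx6, P2ry1 and P2ry4), limma called 0 at the probe set of highest mean, and 0 had an unadjusted p under 0.05 there. P2rx1, an ATP-gated channel known from platelets, was called higher at its other probe set, 1460719_a_at, with log2 values of 4.64 and 4.69 on the zymosan arrays and 4.13 and 4.11, below the filter level, on the unstimulated arrays (adjusted p = 0.0231). The probe set 1460719_a_at passed the filter only through the zymosan arrays, where it was high and still near the filter level. No weight is therefore put on that call. At 1429794_a_at P2rx1 differed by 0.13 (adjusted p = 0.552). Of 9 ectonucleotidase genes limma also called 0, with 0 at an unadjusted p under 0.05, and none of their 19 probe sets tested passed. Entpd1, or CD39, which removes phosphates from ATP and ADP, differed by 0.02 (95% interval -0.24 to 0.27). Nt5e, or CD73, which makes adenosine from AMP, differed by -0.16 (95% interval -0.45 to 0.13).

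Few release and adenosine handling genes passed the test at the probe set of highest mean, where 8.36% of all genes were higher and 5.64% lower. Of 8 release genes 1 was higher, Lrrc8d, a subunit of the volume-regulated anion channel (1.58-fold, adjusted p = 0.0241), while the ATP release channel gene Panx1 differed by 0.28 (adjusted p = 0.325). Vdac1, an anion channel of the outer mitochondrial membrane, was lower at 1415998_at (-1.01, adjusted p = 0.00637) and did not pass at its probe set of highest mean (0.18, adjusted p = 0.286). Of 11 adenosine handling genes 2 were higher at the probe set of highest mean. These were Ampd3, an AMP deaminase (1.49-fold, adjusted p = 0.0246), and Ahcy, which splits S-adenosylhomocysteine into adenosine and homocysteine (1.43-fold, adjusted p = 0.0420). Ada, adenosine deaminase, differed by -0.01. At 1 probe set or more, 3 adenosine handling genes were higher and 1 lower, a count for which no share of all genes was computed. Adk, adenosine kinase, was higher at 1416319_at (0.57, adjusted p = 0.0208), and Nt5c2, a cytosolic nucleotidase, was lower at 1448614_at (-0.80, adjusted p = 0.0103) and 1457949_at (-0.59, adjusted p = 0.0303).

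By the probe set of highest mean, the release and adenosine handling calls were lost in several alternatives. Without zymosan replicate 1 or zymosan replicate 2, the calls of both lists were lost, and likewise with the day of scanning as a block. At an unadjusted p under 0.05, 1 and 2 release genes were higher without each zymosan array, 2 and 2 adenosine handling genes higher, and 1 and 0 adenosine handling genes lower. With the block, 1 release gene was higher and 2 adenosine handling genes higher and 1 lower at that level. Without unstimulated replicate 1 there were 2 release genes and 1 adenosine handling gene higher, and without unstimulated replicate 2 there was also 1 adenosine handling gene lower.

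Of 11 inflammasome and interleukin-1 genes, 2 were higher and 1 lower. Il1b, whose product P2X7 opening helps to release, had log2 values of 6.80 and 6.67 on the zymosan arrays against 4.94 and 4.85 on the unstimulated arrays (3.58-fold, adjusted p = 0.00206). Il1a had 4.91 and 5.20 on the zymosan arrays and 4.05 and 3.89, below the filter level, on the unstimulated arrays, and was at least 1.58-fold higher (adjusted p = 0.00935). Il1a passed the filter only through the zymosan arrays, where it was high. Gsdmd, which forms the pore of pyroptosis, was 1.44-fold lower (adjusted p = 0.0380). Nlrp3 differed by 0.13 (adjusted p = 0.585) and Casp1 by 0.12 (adjusted p = 0.644). Without zymosan replicate 2, 1 gene was higher. The Gsdmd call was lost when zymosan replicate 1, zymosan replicate 2 or unstimulated replicate 1 was left out and with the day of scanning as a block. With the block, 1 lower gene of the list had an unadjusted p under 0.05.

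Of 20 genes of G proteins, adenylyl cyclases, phospholipase C and protein kinase A, 2 were higher and 1 lower at the probe set of highest mean. Over all their 55 probe sets tested, 3 were higher and 11 lower, where 8.48% and 7.45% of all probe sets tested were. Several of the lower ones share a gene. At 1 probe set or more, 2 genes were higher and 6 lower. The share of all genes called in that way was not computed, so nothing is read from this count. Adcy9, a cyclase, was 1.58-fold lower at its representing probe set (6.63 and 6.64 on the zymosan arrays against 7.23 and 7.37 on the unstimulated arrays, adjusted p = 0.0171). Another cyclase gene, Adcy3, was 1.48-fold higher (adjusted p = 0.0244) at 1 of its 4 probe sets and did not pass at the others. Prkar2b, a regulatory subunit of protein kinase A, was 1.55-fold higher (adjusted p = 0.0212). The median of the list was -0.14.

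The further lower calls were at probe sets of Prkacb, Gng2, Gnai2, Gnaq and Prkar1a. Prkacb, a catalytic subunit of protein kinase A, had log2 values of 6.60 and 5.82 on the zymosan arrays and 8.79 and 8.83 on the unstimulated arrays at 1420610_at (-2.60, adjusted p = 0.00504), but differed by -0.31 at 1420611_at (adjusted p = 0.175). Gnai2, an inhibitory G protein subunit to which Gi-coupled receptors signal, differed by -1.11 at 1419449_a_at (adjusted p = 0.00828) and by -0.20 at 1435652_a_at (adjusted p = 0.365). Gng2, a gamma subunit, was lower at 3 probe sets, of which 1418452_at differed most (-1.76, adjusted p = 0.00719). Gnaq, the alpha subunit of Gq, was lower at 1450115_at (-0.83, adjusted p = 0.0276) and 1429559_at (-0.71, adjusted p = 0.0303). Prkar1a was lower at 1425550_a_at (-0.49, adjusted p = 0.0333). By the probe set of highest mean, none of these 5 genes passed. Without zymosan replicate 1 or zymosan replicate 2 the calls at the probe set of highest mean were lost, and likewise with the day of scanning as a block. At an unadjusted p under 0.05 there were 2 and 3 higher, and 3 and 1 lower, without each zymosan array, and 3 higher and 3 lower with the block. Without unstimulated replicate 1, 3 were higher and 2 lower.

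Of 14 phosphodiesterase and cyclic AMP responsive genes, 6 were higher at the probe set of highest mean. For a decrease limma called 0 there, and 1 gene, Pde3b, had an unadjusted p under 0.05. Of the 6 genes, Pde8a and Creb1 had another probe set that passed in the opposite direction. Pde8a, a phosphodiesterase, was higher at 1418406_at (0.67, adjusted p = 0.0146) and lower at 1418407_at (-0.55, adjusted p = 0.0259). Creb1, a transcription factor activated by protein kinase A, was higher at 1452901_at (0.56, adjusted p = 0.0307) and lower at 1421582_a_at (-0.46, adjusted p = 0.0368), so no direction can be given for either gene. Nr4a3 was higher at 1438796_at alone (1.09, adjusted p = 0.0269). The median difference was 0.58. Pde4b, a phosphodiesterase that breaks down cyclic AMP and is itself induced in activated macrophages, had 8.22 and 8.38 on the zymosan arrays against 5.08 and 5.66 on the unstimulated arrays (7.62-fold, adjusted p = 0.00241). Thbs1, or thrombospondin 1, was 3.94-fold higher (adjusted p = 0.00199) and the nuclear receptor gene Nr4a1 2.58-fold higher (adjusted p = 0.00504). Crem, a classical cyclic AMP target, differed by 0.02 at its representing probe set (adjusted p = 0.939) and by 0.52 at 1418322_at (adjusted p = 0.0578). Many of these genes are known to answer other activating signals as well. Fewer than these 6 were called higher when either zymosan array was left out, and 3 were with the day of scanning as a block.

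**Figure D4:**
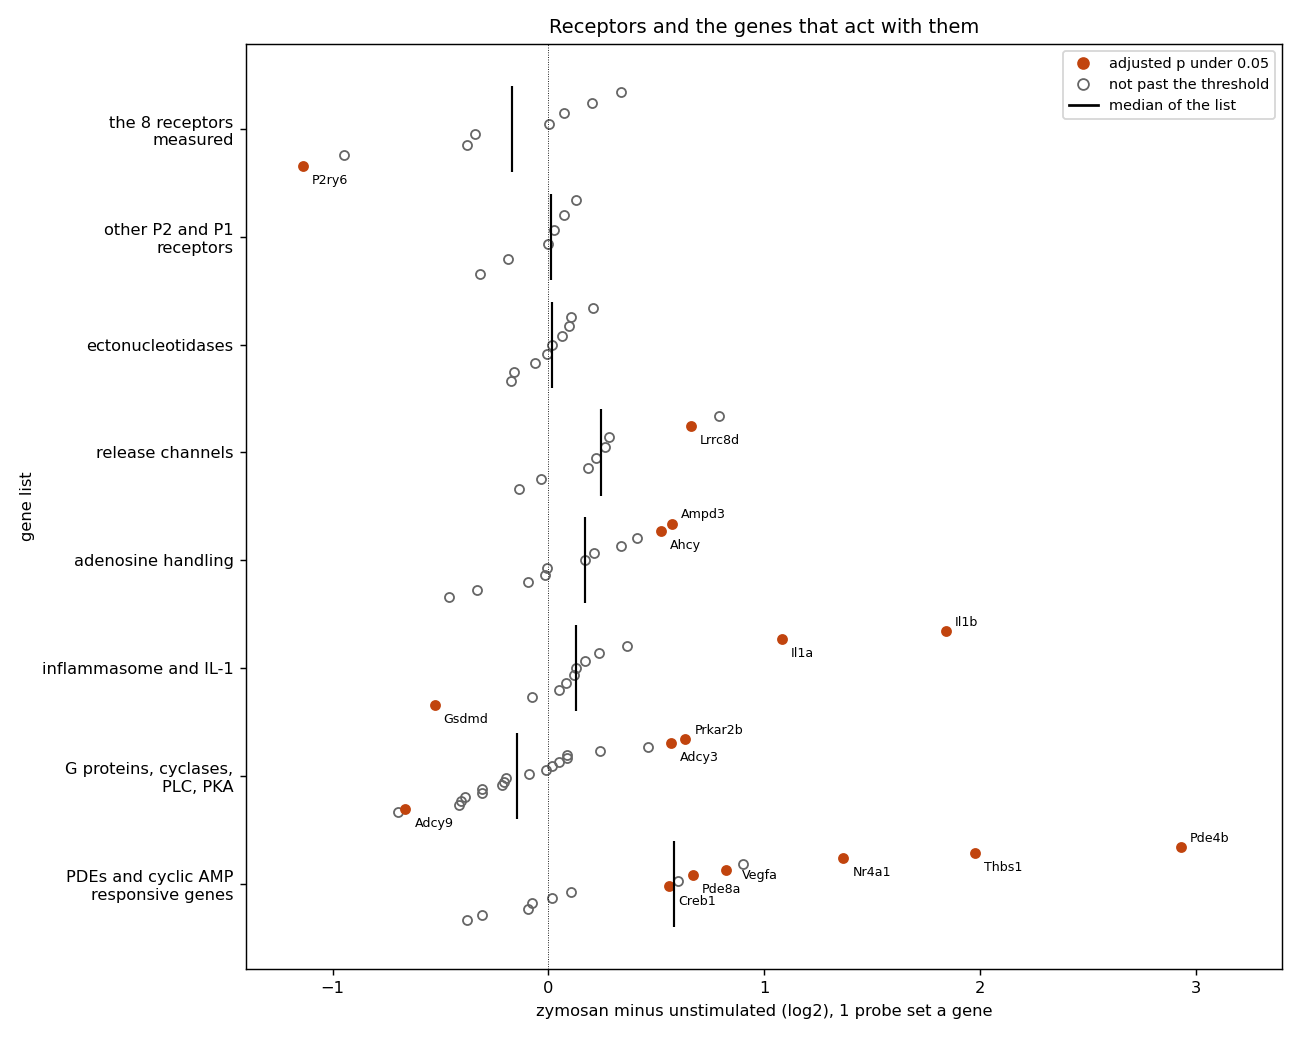
Zymosan minus unstimulated difference on the log2 scale (horizontal axis), 1 probe set a gene, for the 8 receptor genes and for each list of genes that act with them (vertical axis). Filled circles are past the threshold of adjusted p under 0.05 at the probe set of highest mean and named, and black lines are list medians, from -0.17 for the receptors to 0.58 for the phosphodiesterase and cyclic AMP responsive genes.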

How the data were processed

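The authors deposited log2 expression values of 4 Mouse430_2 arrays. RMA made them, per the submitters' processing notes, by correcting background, giving the arrays like distributions and summarizing each probe set. No source used here gives its version or names which arrays entered it. The other deposited files hold instrument settings and gave chip type, day and operator.

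After 64 controls were set aside, 45037 probe sets remained, of which 34945 had 1 symbol in the platform annotation, 932 several and 9160 none listed. Nothing was renormalized, since array medians lay between 4.92 and 4.94. Tests used lmFit and eBayes of limma 3.58.1 in R 4.3.3, 2-sided, on simulated data first. SE is limma's moderated one. Where a group lay wholly below the filter level, the fold was taken against that level.

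The receptors, lists and rule for named genes were chosen with earlier results of these data known. The rule took every receptor probe set, up to 3 genes of smallest p past the threshold in each list, the genes most like the receptor that fell most, and the neighbours of adjoining receptor genes. Other list genes named here were chosen after their values were seen. Motif matches and likeness are descriptions with no test. Alternatives were another filter, centring, quantile normalization, a trended prior, a minimum fold, day as a block and leaving out each array.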

Additional observations from a re-analysis of the deposited data

How the results depend on the processing

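The direction and side of the threshold of each receptor probe set stayed the same in 133 of the recomputed differences. In 11 the call was lost and 6 turned sign. The rest gained a call, only in fits without an unstimulated array, where the spread is that of the zymosan pair alone. Those gains are not read as results. No paired analysis was possible because the labels give the groups no shared replicate numbers. A correlation within day could not be estimated with duplicateCorrelation from 4 arrays, so that fit was not run. In its place, chosen after seeing the data, the day of scanning was a block with a correlation of 0.54, from the pairs' variances.

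Leaving out each array in turn gave 231 to 2531 probe sets higher and 157 to 2280 lower (2339 and 2054 with all arrays), 0 to 1 receptor probe sets higher and 0 to 5 lower, 0 to 1 receptor genes higher and 0 to 3 lower, and 3 to 14 pathway genes higher and 0 to 3 lower. The lone array of a group was assumed to vary like the other group. The highest of each of these counts came from fits without an unstimulated array, whose spread is that of the zymosan pair alone. Requiring a minimum fold of 1.5 with limma's treat gave 253 probe sets higher and 197 lower, 0 receptor probe sets or genes lower (1 of each had an unadjusted p under 0.05), and 4 pathway genes higher and 0 lower (0 at an unadjusted p under 0.05). With day as a block there were 741 probe sets higher and 647 lower, 1 receptor probe set lower, and 5 pathway genes higher and 0 lower, where 1 adenosine handling gene, 1 inflammasome gene and 3 G protein genes were lower at an unadjusted p under 0.05. Pathway genes lower were 2 in all, and 4 with the filter at the 60th percentile or with the trended prior. With the block were lost all calls of the release, adenosine handling and G protein lists and Gsdmd, and 3 cyclic AMP responsive genes were higher there, against 6. Receptor genes lower were 2, against 1, when a gene was read by its probe set of smallest p or by the mean of its probe sets.

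Signs turned at differences that did not pass the test with all arrays. With 1 array left out at a time, Adora3 ran from -0.0594 (without unstimulated replicate 2; -0.0564 without zymosan replicate 1) to 0.0653. P2rx4 ran from -0.0076 (without zymosan replicate 1; -0.0050 without unstimulated replicate 1) to 0.149 at 1425525_a_at, and from -0.43 to 0.13 (without unstimulated replicate 2) at 1446429_at. P2ry13 ran from -0.20 without unstimulated replicate 1 to 0.60 without unstimulated replicate 2.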
